A study of Homo sapiens with 4 samples.

Results

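The 8 genes described here encode the urokinase plasminogen activator PLAU, its cell surface receptor PLAUR, the tissue plasminogen activator PLAT and 5 members of the serpin family, SERPINB2, SERPINE2, SERPIND1, SERPINB6 and SERPINH1. They were chosen by symbol from the 23228 gene symbols counted in U87 MG cells, with the difference between PELP1 siRNA and control siRNA already known. Their differences under that contrast are therefore given as a description, and no p-value is given for them. All 8 passed the filter on low counts that left 13234 genes for testing.

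U87 MG is an established human glioblastoma cell line. The PELP1 siRNA group received siRNA against PELP1, a scaffold protein of nuclear receptor complexes and of large ribosomal subunit assembly, and the control siRNA group received a control siRNA. Both groups were grown in DMEM with 10% fetal bovine serum, transfected with oligofectamine and harvested at 72 h for total RNA, and each gave 2 libraries. Each group stands on 1 siRNA treatment of 1 cell line, so PELP1 loss and other effects of that siRNA cannot be told apart.

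Plasminogen is a circulating zymogen that PLAU and PLAT cleave to plasmin, a protease that degrades fibrin and activates other matrix-degrading enzymes. PLAUR concentrates urokinase at the cell surface, where integrins act as its signalling partners, and LRP1 takes up complexes of urokinase with its inhibitors. Serpins are a family of suicide inhibitors in which a protease cleaves an exposed loop and is trapped as the serpin refolds. A few members, such as SERPINH1, inhibit no protease. In glioma the urokinase system is known for its part in invasion of the surrounding matrix.

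Gene counts came to 19389684 and 18670162 in the PELP1 siRNA libraries and to 19662271 and 22858988 in the control siRNA libraries. The targeted gene had 299 and 336 counts in the PELP1 siRNA libraries, against 1434 and 1749 counts in the control siRNA libraries. This is 15.2 and 17.7 CPM (counts scaled to library size, with TMM factors) against 74.0 and 78.1 CPM, a log2 fold change of -2.21 ± 0.10 (SE; edgeR's quasi-likelihood test, adjusted p = 8.32e-14). The mesenchymal glioma markers VIM and CD44 were abundant, with VIM at 5609.7 and 6056 CPM in PELP1 siRNA libraries and 7021 and 7140.4 CPM in control siRNA libraries. VIM (log2 fold change -0.28, edgeR, adjusted p = 8.73e-04), CD44 (-0.32, adjusted p = 1.92e-04) and the intermediate filament gene NES (-0.51, adjusted p = 2.90e-04) were called lower in PELP1 siRNA cells. The glial factor SOX9 was called higher, with 36.9 and 35.9 CPM in PELP1 siRNA libraries and 24.0 and 24.7 CPM in control siRNA libraries (0.58, edgeR, adjusted p = 4.91e-05). Of the 10 astroglial and glioma markers listed, 6 were tested. Mature astrocyte markers were low or absent: GFAP lay between 1.22 and 1.84 CPM over the 4 libraries, and AQP4 and ALDH1L1 had no count in any of them. The labels give duplicates and do not say whether they were separate cultures, so a p-value here covers no more than the spread between 2 samples of a group, and that spread may be technical.

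The 8 genes are sorted here by whether they passed an adjusted p under 0.05 in the fit over all genes. By this sorting, 4 were lower in PELP1 siRNA cells (PLAU, PLAUR, SERPINB2 and SERPIND1) and 2 were higher (SERPINE2 and SERPINB6). The other 2, PLAT and SERPINH1, did not pass and lay close to their control level. Among all 13234 genes tested, 27.9% passed the threshold of an adjusted p under 0.05, 12.9% as higher and 15.0% as lower. Since the genes were chosen with this contrast known, nothing is read from their 4 lower and 2 higher calls. Their median log2 fold change was -0.39, beside 0.001 over all genes tested, whose 5th and 95th percentiles were -0.65 and 0.51. In these bulk samples, fewer cells that express a gene and less of its RNA per cell cannot be told apart.

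Among the activators, PLAU and PLAT stood far apart. PLAU, the serine protease urokinase, lies on chromosome 10 (GRCh37, chr10:75668935-75677254, plus strand). Its counts were 3358 and 3470 in PELP1 siRNA libraries and 8023 and 9327 in control siRNA libraries. Scaled by library, PLAU stood at 170.5 and 183 CPM in PELP1 siRNA cells, against 414 and 416 CPM in control siRNA cells. Both PELP1 siRNA libraries were below both control siRNA libraries, and the gap was far wider than that between libraries of a group. The means were 177 ± 8.74 CPM in PELP1 siRNA cells and 415 ± 1.73 CPM in control siRNA cells (SD, n = 2 each), a log2 fold change of -1.23 ± 0.065 (SE).

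PLAT, the tissue-type activator best known for clot lysis, is annotated on chromosome 8 and was the minor activator: per kilobase of merged exons, PLAU RNA was 27.8 and 31.4 times PLAT RNA in PELP1 siRNA libraries and 62.7 and 72.5 times in control siRNA libraries. On canonical transcripts PLAU RNA was 13.8 and 15.6 times PLAT RNA in PELP1 siRNA libraries and 31.1 and 36.0 times in control siRNA libraries. PLAT had 16.1 and 15.3 CPM in PELP1 siRNA libraries and 17.4 and 15.1 CPM in control siRNA libraries. The groups overlapped. The log2 fold change was -0.043 ± 0.11 (SE), and its sign turned under total-count scaling (0.0047) and without control siRNA replicate 1 (0.056).

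**Figure D1:**
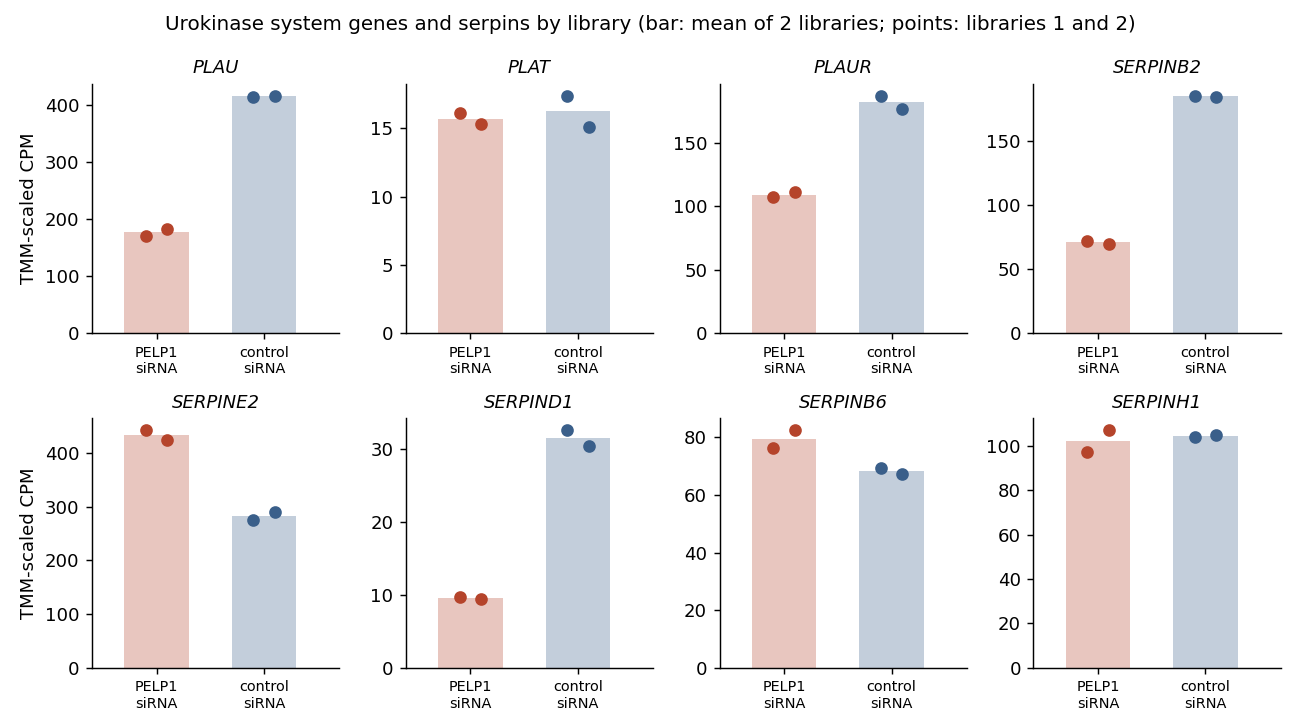
TMM-scaled CPM of the 8 genes in each library, with PELP1 siRNA on the left and control siRNA on the right of each panel; bars are means of 2 libraries and points are the libraries. PLAU, PLAUR, SERPINB2 and SERPIND1 are lower in both PELP1 siRNA libraries, SERPINE2 and SERPINB6 are higher, and the PLAT and SERPINH1 libraries overlap between groups.

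PLAUR, the glycolipid-anchored receptor of urokinase, was lower along with its ligand. The gene is on chromosome 19 (chr19:44150247-44174699, minus strand) and had 2098 and 2115 counts in PELP1 siRNA libraries and 3617 and 3954 counts in control siRNA libraries. Its level was 107 and 111 CPM in PELP1 siRNA cells, against 187 and 176 CPM in control siRNA cells. The groups did not overlap. The means of 109 ± 3.49 CPM in PELP1 siRNA cells and 182 ± 7.14 CPM in control siRNA cells (SD, n = 2 each) gave a log2 fold change of -0.74 ± 0.068 (SE), a smaller difference than that of PLAU.

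The inhibitors of the activators went in opposite directions. SERPINB2, plasminogen activator inhibitor type 2, is mostly kept inside the cell and is encoded in a cluster of related serpins on chromosome 18 (chr18:61538926-61571122, plus strand). It had 1418 and 1330 counts in PELP1 siRNA libraries and 3605 and 4153 counts in control siRNA libraries. These correspond to 72.0 and 70.1 CPM in PELP1 siRNA cells, against 186 and 185 CPM in control siRNA cells. Libraries of the same group were nearly equal, and the groups lay far apart. The log2 fold change was -1.39 ± 0.069 (SE), so the control mean was 2.61 times the PELP1 siRNA mean.

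SERPINE2, protease nexin-1, inhibits thrombin, urokinase and tissue plasminogen activator at the cell surface and in the matrix, and is made by glia. It was higher in PELP1 siRNA cells. It lies on chromosome 2 (chr2:224839762-224904035, minus strand) and had 442 and 423 CPM in PELP1 siRNA libraries, against 275 and 289.7 CPM in control siRNA libraries. Both PELP1 siRNA libraries were above both control siRNA libraries. With means of 433 ± 13.8 CPM in PELP1 siRNA cells and 282 ± 10.4 CPM in control siRNA cells (SD, n = 2 each), the log2 fold change was 0.62 ± 0.063 (SE).

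SERPIND1, heparin cofactor II, is a thrombin inhibitor of plasma that the liver secretes, and it does not inhibit plasminogen activators. It lies on chromosome 22 (chr22:21128401-21142008, plus strand) inside the body of PI4KA, a lipid kinase gene on the opposite strand with which it shares no exon base. It had 190 and 178 counts in PELP1 siRNA libraries and 631 and 678 counts in control siRNA libraries. Its level was 9.65 and 9.38 CPM in PELP1 siRNA cells, against 32.5 and 30.3 CPM in control siRNA cells. The groups did not overlap, and the log2 fold change of -1.72 ± 0.11 (SE) was the lowest of the 8 genes. Hepatocyte markers were near the floor: of 9, 1 passed the filter, ALB, TTR and AHSG had no count in any library, and the list summed to 1.42 and 1.37 CPM in PELP1 siRNA libraries and 1.65 and 2.05 CPM in control siRNA libraries.

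The 2 remaining serpins differed little. SERPINB6, an inhibitor of trypsin-like proteases and cathepsin G that stays in the cytoplasm, lies on chromosome 6 (chr6:2948393-2972399, minus strand). It had 76.3 and 82.5 CPM in PELP1 siRNA libraries and 69.3 and 67.4 CPM in control siRNA libraries. These groups did not overlap, yet the log2 fold change was only 0.22 ± 0.077 (SE). SERPINH1, the collagen chaperone HSP47 of the endoplasmic reticulum, lies on chromosome 11 (chr11:75273101-75283828, plus strand). It had 97.2 and 107 CPM in PELP1 siRNA libraries and 104 and 105 CPM in control siRNA libraries. The SERPINH1 groups overlapped, the log2 fold change was -0.027 ± 0.073 (SE), and its sign turned under total-count scaling (0.021) and without PELP1 siRNA replicate 1 (0.047).

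Over the 8 genes, 6 had groups that did not overlap, as did 64.2% of all genes tested. Under 13 alternative scalings, filters, tools and left-out libraries, 6 of the log2 fold changes kept their sign. PLAU stayed between -1.28 and -1.18, PLAUR between -0.78 and -0.69, and SERPINB2 between -1.40 and -1.34. SERPIND1 stayed between -1.77 and -1.67, SERPINE2 between 0.58 and 0.66, and SERPINB6 between 0.17 and 0.28. Whether these 6 also kept their side of the threshold is not given here, so a kept sign is not a kept call.

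Genes can be set beside each other only per length, and 2 lengths were used, since some of these genes have many annotated isoforms: all annotated exons merged, and the canonical transcript. Per kilobase of merged exons PLAU led the 8 genes in both groups, with 57.8 and 62.0 CPM per kilobase in PELP1 siRNA libraries and 140.3 and 141 CPM per kilobase in control siRNA libraries.

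On the merged length, the order below PLAU in control siRNA cells was SERPINB2 (67.7 ± 0.153 CPM per kilobase, SD, n = 2), PLAUR (40.7 ± 1.60), SERPINE2 (31.5 ± 1.16), SERPINH1 (16.6 ± 0.0718), SERPIND1 (13.5 ± 0.697), SERPINB6 (5.18 ± 0.103) and PLAT (2.09 ± 0.205). No neighbours in that order overlapped. In PELP1 siRNA cells SERPINE2 stood second among the 8 genes, at 48.3 ± 1.54 CPM per kilobase (SD, n = 2), and SERPIND1 stood below SERPINB6. SERPINB2 and PLAUR were close neighbours there, at 25.9 ± 0.492 and 24.4 ± 0.782 CPM per kilobase.

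The canonical length changed parts of this order. It placed SERPINE2 first of the 8 genes in PELP1 siRNA cells, at 199 and 190.0 CPM per kilobase, while PLAU led in control siRNA cells, at 177 and 178 CPM per kilobase. SERPINB6 stood above SERPIND1 in both groups on this length. Their means were 60.4 and 4.32 CPM per kilobase in PELP1 siRNA cells and 52.0 and 14.3 in control siRNA cells. PLAU and PLAUR overlapped in PELP1 siRNA cells on that length (72.8 and 78.0 against 77.9 and 81.5 CPM per kilobase), and PLAUR and SERPINE2 overlapped in control siRNA cells (136 and 129 against 124 and 130.1 CPM per kilobase). The ratio of PLAU to PLAUR was 2.42 and 2.48 in PELP1 siRNA libraries and 3.35 and 3.57 in control siRNA libraries on merged exons, and 0.935 and 0.958 in PELP1 siRNA libraries and 1.30 and 1.38 in control siRNA libraries on canonical transcripts. Which of the pair was higher in PELP1 siRNA cells therefore depended on the length. The fold between groups in this ratio is the same on either length by construction.

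The balance between the inhibitors SERPINE2 and SERPINB2 turned over on merged exons. SERPINE2 RNA per kilobase was 1.88 and 1.85 times SERPINB2 RNA in PELP1 siRNA libraries, against 0.453 and 0.478 times in control siRNA libraries. On canonical transcripts it was 5.26 and 5.17 times in PELP1 siRNA libraries and 1.27 and 1.34 times in control siRNA libraries, so SERPINE2 was then the higher one in both groups. SERPINE2 was also higher relative to PLAU: their ratio was 0.854 and 0.762 in PELP1 siRNA libraries and 0.219 and 0.229 in control siRNA libraries on merged exons, and 2.73 and 2.43 in PELP1 siRNA libraries and 0.699 and 0.732 in control siRNA libraries on canonical transcripts. The ratio of SERPINB2 to PLAU differed less between groups, at 0.454 and 0.412 in PELP1 siRNA libraries and 0.483 and 0.479 in control siRNA libraries on merged exons. These are ratios of RNA, and protein and protease activity were not measured.

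**Figure D2:**
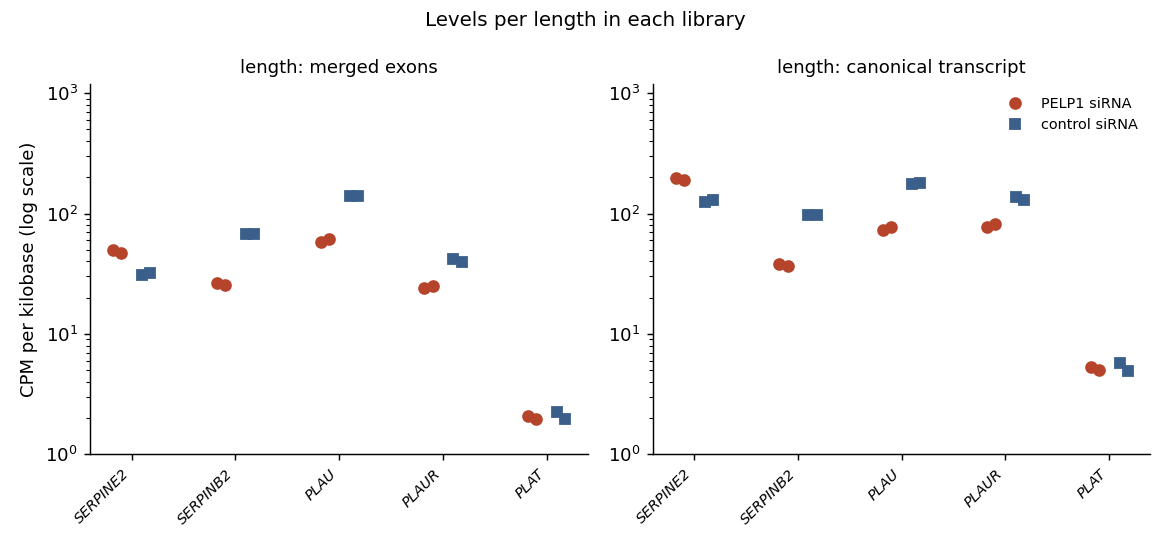
CPM per kilobase on a log scale for SERPINE2, SERPINB2, PLAU, PLAUR and PLAT in each library, with lengths from merged exons on the left and from canonical transcripts on the right; circles are PELP1 siRNA and squares control siRNA. PLAT is the lowest of the 5 on both lengths, and SERPINE2 alone is higher in PELP1 siRNA cells.

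The wider plasminogen system was read from a list of 32 further genes (inhibitors, receptors, plasminogen-binding proteins and integrins), of which 19 were tested. In PELP1 siRNA cells 6 of these fell, 3 rose and 10 did not pass the threshold, with a median log2 fold change of -0.055. The share called was 47.4%, beside 27.9% of all genes tested, and the list was chosen with earlier results of these data known. RNA of plasminogen itself was close to absent in these cells, and plasminogen protein was not measured. PLG had 1 count in 1 PELP1 siRNA library and none in the other 3 libraries. A count of 0 there allows up to 0.158 CPM. A2M, an inhibitor of plasmin, had 1 count in all, and VTN, the matrix protein that binds PLAUR, had at most 7 counts in a library.

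Among the inhibitors on that list, TFPI2 fell furthest. It encodes a Kunitz-type inhibitor of plasmin and trypsin and had 2204 and 2160.2 CPM in PELP1 siRNA libraries and 3629 and 3868 CPM in control siRNA libraries. Its log2 fold change was -0.78 ± 0.059 (SE; edgeR's quasi-likelihood test, adjusted p = 8.72e-10). SERPINB8, an inhibitor of furin, also fell, with a log2 fold change of -0.60 ± 0.073 (SE; edgeR, adjusted p = 1.38e-06). SERPINI1, the neuronal inhibitor of tissue plasminogen activator called neuroserpin, rose: it had 9.49 and 10.9 CPM in PELP1 siRNA libraries and 5.21 and 6.07 CPM in control siRNA libraries (log2 fold change 0.85 ± 0.15, SE; edgeR, adjusted p = 1.38e-04).

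The integrin subunits did not share a direction. ITGB3, the beta subunit of the vitronectin receptor, fell to 139.7 and 118 CPM in PELP1 siRNA libraries, against 405 and 401 CPM in control siRNA libraries (log2 fold change -1.65 ± 0.074, SE; edgeR, adjusted p = 1.00e-13). In the annotation, 33.2% of its exon bases are shared with another gene model on the same strand, which has no symbol among those counted. ITGA3 (-0.31, adjusted p = 2.52e-04) and ITGB1 (-0.29, adjusted p = 0.0117), the subunits of a laminin receptor that binds PLAUR, fell by less in the same edgeR fit. The ITGB1 call was lost with DESeq2's Wald test (adjusted p = 0.233) and without control siRNA replicate 1 (adjusted p = 0.0527) or 2 (adjusted p = 0.0694), and its value was -0.47 without PELP1 siRNA replicate 1 and -0.13 without PELP1 siRNA replicate 2. ITGAV, the alpha partner of ITGB3, had a log2 fold change of 0.23 (edgeR, adjusted p = 0.0284), and this call was lost with DESeq2's Wald test (adjusted p = 0.0624) and when any one of 3 libraries was left out (PELP1 siRNA replicate 1, adjusted p = 0.169; control siRNA replicate 1, 0.312; control siRNA replicate 2, 0.144). Its value was 0.068 without PELP1 siRNA replicate 1 and 0.38 without PELP1 siRNA replicate 2. ITGA5 (-0.055, adjusted p = 0.518) and ITGB5 (-0.062, adjusted p = 0.521) did not pass.

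Among the uptake receptors, LRP1, which internalises urokinase bound to its inhibitors, fell to 540.1 and 626 CPM in PELP1 siRNA libraries, against 909 and 812 CPM in control siRNA libraries (log2 fold change -0.56 ± 0.071, SE; edgeR, adjusted p = 2.47e-06). VLDLR (-0.22, adjusted p = 0.0715), MRC2 (-0.16, adjusted p = 0.105) and IGF2R (-0.023, adjusted p = 0.811) did not pass. Of the plasminogen-binding proteins, S100A10 rose, with 797 and 894 CPM in PELP1 siRNA libraries and 618 and 610.3 CPM in control siRNA libraries (log2 fold change 0.46 ± 0.064, SE; edgeR, adjusted p = 8.36e-06). Its membrane partner ANXA2 (0.073, adjusted p = 0.412), the enolase ENO1 (0.067, adjusted p = 0.433) and the plasminogen receptor PLGRKT, listed as C9orf46 (-0.027, adjusted p = 0.874), did not pass.

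**Figure D3:**
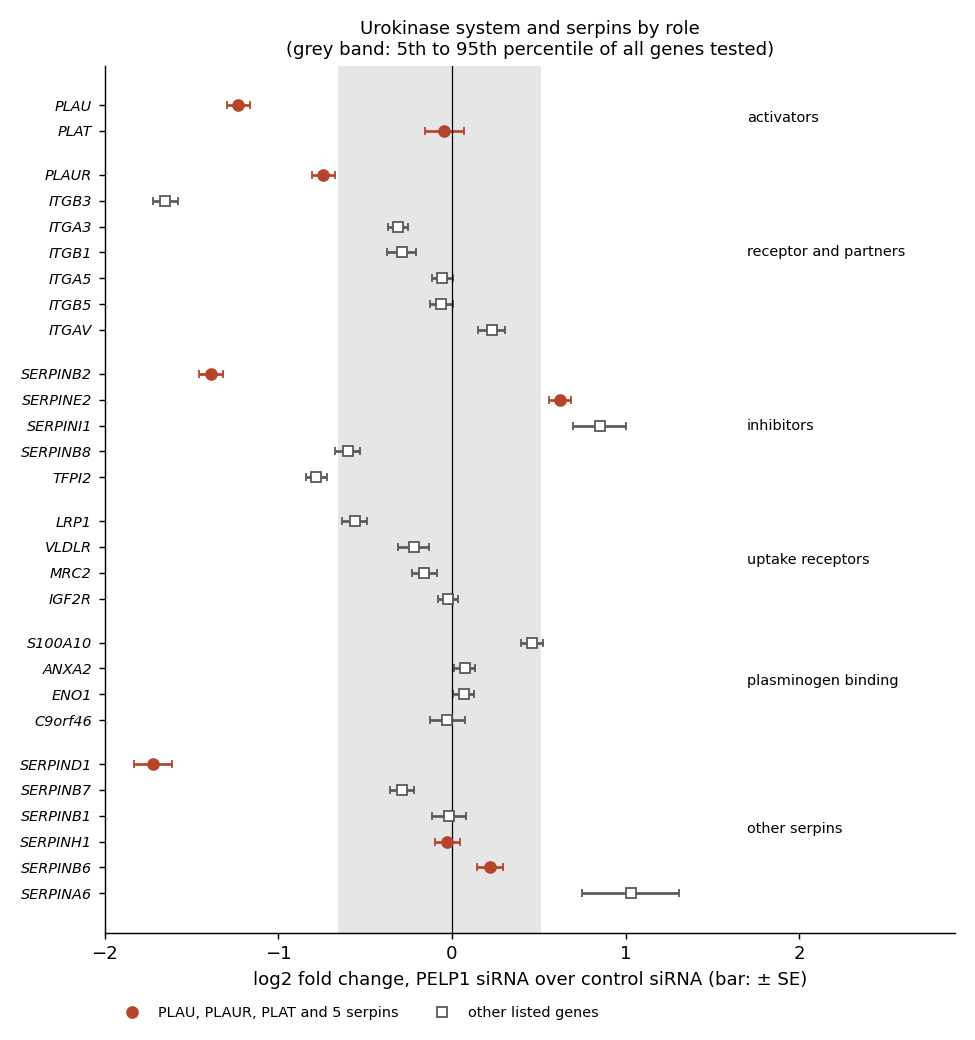
Log2 fold change of PELP1 siRNA over control siRNA (bars, ± SE) by role; filled circles are the 8 genes described here, open squares other listed genes, and the grey band spans the 5th to 95th percentile of all genes tested (-0.65 to 0.51). ITGB3, SERPINB2, SERPIND1 and PLAU lie far left of the band, and SERPINE2, SERPINI1 and SERPINA6 lie to its right.

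Beyond the 8 genes, 29 further serpin symbols were read, of which 8 were tested and 21 had at most 8 counts in a library. Of the 8 tested, 2 fell (SERPINB8 and SERPINB7), 2 rose (SERPINI1 and SERPINA6) and 4 did not pass the threshold (SERPINB1, SERPINA1, SERPINF1 and SERPINB4), with a median log2 fold change of -0.13. The share called was 50.0%, beside 27.9% of all genes tested. SERPINB8 and SERPINI1 are also counted in the plasminogen list, so these shares are not separate results. SERPINB7, a serpin of skin and kidney mesangium, had 118 and 114 CPM in PELP1 siRNA libraries and 138 and 145 CPM in control siRNA libraries (log2 fold change -0.29, edgeR, adjusted p = 0.00292). That call was lost without control siRNA replicate 1 (adjusted p = 0.0743) or 2 (adjusted p = 0.191). SERPINA6, the corticosteroid-binding globulin and no protease inhibitor, was low, with 2.13 and 2.37 CPM in PELP1 siRNA libraries and 0.877 and 1.29 CPM in control siRNA libraries (log2 fold change 1.03 ± 0.28, SE; edgeR, adjusted p = 0.00777). Its call was lost with DESeq2's Wald test (adjusted p = 0.0967) and without control siRNA replicate 1 (adjusted p = 0.152).

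SERPINB2 sits among 11 genes that span 543 kb of chromosome 18, and the genes tested around it did not all move one way. Of these 11 genes 5 were tested, and the other 6 had at most 4 counts in a library. In order along the chromosome, SERPINB4 had a log2 fold change of 0.26 (edgeR, adjusted p = 0.723), SERPINB7 of -0.29, SERPINB2 of -1.39, HMSD of 0.77 and SERPINB8 of -0.60. HMSD, a serpin-domain gene, had 7.31 and 7.06 CPM in PELP1 siRNA libraries and 4.18 and 4.24 CPM in control siRNA libraries, and rose (edgeR, adjusted p = 8.29e-04). It shares 12.7% of its exon bases in the gene models with SERPINB8, which is on the same strand and fell. Reads in overlapping genes are left out by such counting, though the annotation used for it is not given.

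**Figure D4:**
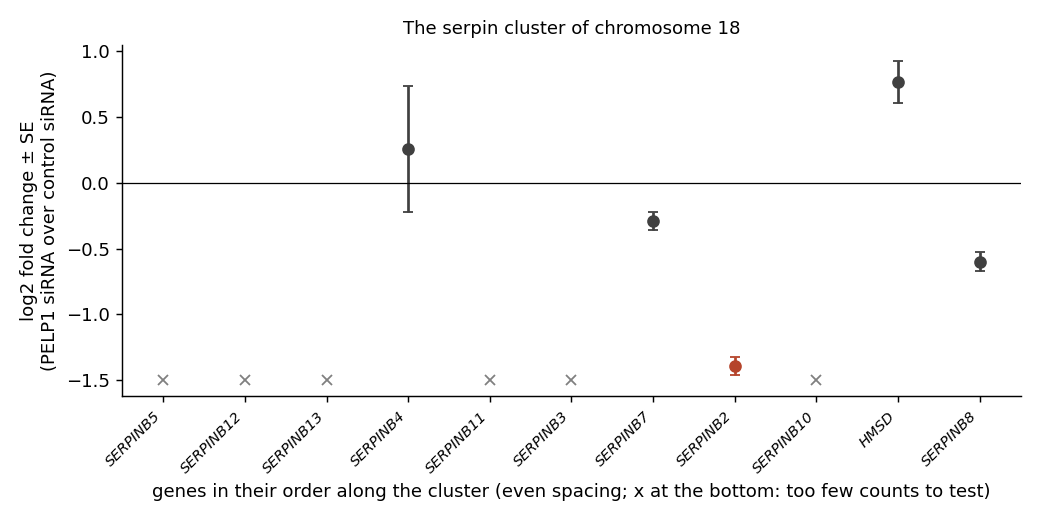
Log2 fold change of PELP1 siRNA over control siRNA (points, ± SE) for the 11 genes of the chromosome 18 serpin cluster in their order along it, evenly spaced; crosses at the bottom mark the 6 genes with too few counts to test, and SERPINB2 is in red. SERPINB2 (-1.39) lies between SERPINB7 (-0.29) and SERPINB10, which was not tested, and HMSD (0.77) lies on the other side of 0.

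Of the 16 tested genes nearest to the 8 on either side, SERPINB7 and HMSD included, 2 rose (CUL3 and HMSD), 1 fell (SERPINB7) and 13 did not pass the threshold, which 27.9% of all genes tested passed. CUL3, the nearest tested gene on its side of SERPINE2, lies 430832 bases away and had the direction of SERPINE2. SERPINB7, 66316 bases from SERPINB2, had the direction of that gene, and HMSD, 45413 bases from it, had the other. Next to PLAU these were CAMK2G (log2 fold change 0.13) and VCL (0.052), the sign of the second turning to -0.0077 without PELP1 siRNA replicate 1. PI4KA, which encloses SERPIND1, had a log2 fold change of -0.12. CUL3 rose slightly (0.23, edgeR, adjusted p = 0.0107), a call that was lost without either control siRNA library.

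Exon overlap limits the counts of a pair of genes. In the gene models C10orf55, on the other strand, covers 31.0% of the exon bases of PLAU, and whether reads were counted by strand is not given in the sources used here. C10orf55 was counted at 0.863 and 0.685 CPM in PELP1 siRNA libraries and 0.825 and 0.536 CPM in control siRNA libraries. SERPINB2 shares 20.0% of its exon bases with a same-strand gene model that has no symbol in the files.

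By the likeness of their levels over the 4 libraries, measured as the root mean square difference of centred log2 CPM, the genes closest to PLAU were the cytokine CSF3 (0.0125), the glycolytic enzyme PFKM (0.0165) and the transcription factor MAFF (0.0287), out of 9492 candidates. The genes closest to SERPINE2 were DIXDC1 (0.0123), JAKMIP2 (0.0132) and SLC25A40 (0.0140). CSF3 stood at 437 and 480.1 CPM in PELP1 siRNA libraries and 1072 and 1079 CPM in control siRNA libraries. With 2 groups of 2 libraries, such likeness mostly reflects an equal fold change. Within the 8 genes, PLAU was nearest to SERPINB2 (0.09) and farthest from SERPINE2 (0.93).

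The promoters of the 4 genes that were lower are shown because these genes differed in the same direction, and common short motifs can be read in them. Each is 300 bases from RefSeq's promoter table (250 before and 50 after the annotated start), placed in GRCh37 by its sequence. The windows are chr10:75670640-75670939 (plus) for PLAU, chr19:44174272-44174571 (minus) for PLAUR, chr18:61554689-61554988 (plus) for SERPINB2 and chr22:21128151-21128450 (plus) for SERPIND1. Capitals mark matches on either strand. The AP-1 word searched was TGANTCA. The GC box was GGGCGG. The TATA word was TATAAA. The word searched for the TCF/LEF core was CTTTGNT, where N is any base. No match overlaps another.
PLAU: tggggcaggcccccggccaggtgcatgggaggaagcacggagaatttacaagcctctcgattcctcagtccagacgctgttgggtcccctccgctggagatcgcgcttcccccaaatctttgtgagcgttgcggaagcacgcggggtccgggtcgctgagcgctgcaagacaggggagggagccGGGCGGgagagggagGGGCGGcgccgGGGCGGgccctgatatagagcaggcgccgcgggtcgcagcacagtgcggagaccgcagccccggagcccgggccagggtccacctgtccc
PLAUR: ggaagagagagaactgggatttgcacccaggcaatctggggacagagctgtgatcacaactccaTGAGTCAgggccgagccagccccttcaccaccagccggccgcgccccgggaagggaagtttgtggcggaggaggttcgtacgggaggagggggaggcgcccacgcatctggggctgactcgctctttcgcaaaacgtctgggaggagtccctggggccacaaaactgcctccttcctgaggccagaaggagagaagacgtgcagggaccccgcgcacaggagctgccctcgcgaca
SERPINB2: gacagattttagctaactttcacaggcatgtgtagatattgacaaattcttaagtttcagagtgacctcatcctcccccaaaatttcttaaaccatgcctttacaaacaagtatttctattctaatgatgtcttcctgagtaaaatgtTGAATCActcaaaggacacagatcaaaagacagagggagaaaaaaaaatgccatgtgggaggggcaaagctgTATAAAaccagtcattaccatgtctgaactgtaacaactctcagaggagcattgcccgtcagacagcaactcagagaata
SERPIND1: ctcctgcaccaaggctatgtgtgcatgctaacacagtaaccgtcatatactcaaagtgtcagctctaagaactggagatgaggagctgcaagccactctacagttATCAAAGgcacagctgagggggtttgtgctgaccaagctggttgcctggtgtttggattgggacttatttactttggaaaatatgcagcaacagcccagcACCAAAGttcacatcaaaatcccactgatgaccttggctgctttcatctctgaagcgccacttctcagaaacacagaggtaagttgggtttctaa

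No motif was held by all 4 windows. The AP-1 word stood in PLAUR at -186 and in SERPINB2 at -102 from the start, and the word was held by 7.76% of 27305 RefSeq promoters of the same length. PLAU held 3 GC boxes, at -66, -51 and -40, and the GC box stood in 44.6% of all promoters. The TATA word at -30 of SERPINB2 was found in 12% of all promoters. SERPIND1 held the word CTTTGNT at -145 (as ATCAAAG) and at -45 (as ACCAAAG), and 15.6% of all promoters held it. Since N is any base, a match to this word need not be a TCF/LEF core. SERPINE2 and SERPINB6, the genes that were higher, held the GC box and none of the other 3 words, and SERPINH1 held none of the 4; the SERPINE2 window starts from an annotated start 646 bases from that of its canonical transcript. A match is a string of letters and was not tested for binding.

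A pair of the lower genes carries the 7-base word CTCAGTT in the 3′ UTR. An earlier account of these data had chosen this word and GCCTTGA on the same fold changes, so their presence here supports nothing and is given as a description. PLAU carries it at position 743 of a 929-base 3′ UTR (chr10:75677055-75677083, plus) and PLAUR at position 119 of a 311-base 3′ UTR (chr19:44152906-44152934, minus). The sites are shown with 11 bases on either side and the word in capitals.
PLAU site: accagcactgtCTCAGTTtcactttcaca
PLAUR site: cctctctgggcCTCAGTTttcccagctat

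The canonical 3′ UTRs of the other 6 genes held neither word, SERPINB2 and SERPIND1 included, and neither did those of the other 8 tested serpins. Over the 12211 tested genes with a canonical 3′ UTR, 17.2% held CTCAGTT, with 12.4% of the genes that rose, 29.4% of those that fell and 15.4% of those that did not pass. GCCTTGA was held by 11.9% of all, by 8.04% of those that rose, by 21.4% of those that fell and by 10.6% of those that did not pass. The 3′ UTRs of genes that fell were longer, with a median of 1704 bases against 1301 bases in genes that did not pass, and the part of length in these shares was not tested.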

How the data were processed

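Read counts per gene symbol were deposited by the authors without normalization, 1 column for each of 4 libraries. Per the labels' protocols these were TruSeq total RNA libraries sequenced from 1 end for 50 bp. Per the submitters' processing notes, CASAVA 1.8.2, TopHat2 2.0.8b and HTSeq were used with hg19 (GRCh37). Not given in the sources used here are the strand setting and version of HTSeq, its annotation, and the sequence of either siRNA. The 5 summary lines of each column, 36.0 to 37.6% of its total, were left out, and depth was 18670162 to 22858988 gene counts per library. Such counting leaves out reads with several alignments (26.3 to 27.5% of each column) and reads in overlapping genes.

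From the deposited counts, edgeR 4.0.16 (R 4.3.3) was run with filterByExpr (minimum count 10, minimum total count 15), TMM scaling and a robust quasi-likelihood fit of group, with all 4 libraries. Benjamini-Hochberg adjustment ran over all 13234 genes tested, with a threshold of 0.05. In this fit, each SE is the absolute log2 fold change over the square root of the test's F statistic. Such an SE is not the spread between libraries of a group. The 8 genes, the gene lists and the marker lists were chosen with earlier results of these data known, so the 8 genes carry no p-value. Libraries of a group differed beyond sampling noise (chi-square per gene 7.13 for the PELP1 siRNA pair and 2.09 for the control siRNA pair), and none were merged.

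Named outside the 8 were the called genes of each list (up to the 5 lowest in adjusted p for each direction), LRP1, A2M, VTN, ANXA2 and S100A10, genes that flank or overlap the 8, and the 3 genes most like PLAU and SERPINE2 in level (mean of at least 10 CPM, pseudocount 0.5). 1 further gene that falls under this rule is not reported here, and the list counts leave it out. ITGB1, TMPRSS15 and list genes given as not passing the threshold were named after their values were seen. Lengths, coordinates and exon overlap came from GENCODE gene models on GRCh37, which matched 20990 of 23228 symbols. RefSeq promoters (GRCh38.p14 table) were placed in GRCh37 by exact match, for 7 of the 8 genes, all but PLAT. Alternatives were 3 other scalings, 2 other filters, DESeq2 1.42.0, limma-voom (limma 3.58.1), a fit that was not robust, a replicate block and leaving out each library. Canonical transcript length was added after the data were seen, and the words searched in promoters were not planned beforehand. Intervals were not computed, and the limit that 0 counts allow (3 counts per library) covers counting error only.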

Additional observations from a re-analysis of the deposited data

How the results depend on the processing

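Of 3692 genes called, 1712 were higher and 1980 lower (53.6% lower). Total-count scaling gave 3869 calls with 41.3% lower and moved the median log2 fold change of all genes to 0.049. DESeq2's Wald test called 2560, 1133 higher and 1427 lower. Leaving out each library gave 1466 to 5528 calls, the lowest (1466 and 1689) without control siRNA replicates 1 and 2; the lone library of a group is then assumed to vary like the other pair. Calls over the same left-out libraries ranged from 7 to 11 in the plasminogen list, 2 to 4 in other serpins, 2 to 8 in coagulation, 2 to 6 in trypsin-like proteases, 3 to 6 in other inhibitors and 2 to 12 in collagen folding partners. Coagulation had 3 calls under total-count scaling and 3 with DESeq2. SERPINB2's log2 fold change was -1.34 under total-count scaling, beyond its library spread.

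Libraries of the same replicate number shared no clear deviation from their group means (correlation -0.0799 over 9500 genes). This cannot show whether they were prepared together, which the labels do not say. A replicate block gave 3581 calls. Direction turned for genes near 0. Over the left-out libraries VCL ranged from -0.0077 to 0.12, IKBKB from -0.13 to 0.039, CADM4 from -0.001 to 0.29, GDPD5 from -0.12 to 0.54, C10orf55 from -0.09 to 0.53 and SERPINB1 from -0.073 to 0.041, and SERPINB1 was 0.031 under total-count scaling. The cause was not tested. Over the 53 other named genes, 623 values kept direction and side of the threshold, 43 lost a call, 12 gained one and 8 turned. Depth limits genes of a few counts, such as PLG.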

Other observations

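Around thrombin, the protease that SERPIND1 and SERPINE2 inhibit, 17 of 31 coagulation genes were tested, of which 5 fell, none rose and 12 did not pass, with a median log2 fold change of -0.026. The share called, 29.4%, was close to the 27.9% of all genes tested, and 2 genes rose without PELP1 siRNA replicate 1 and 1 without PELP1 siRNA replicate 2. THBD, the receptor that turns thrombin toward protein C, had 4.01 and 4.32 CPM in PELP1 siRNA libraries and 11 and 10.4 CPM in control siRNA libraries (log2 fold change -1.36 ± 0.15, SE; edgeR, adjusted p = 3.50e-07). F3, tissue factor, did not pass (-0.046, edgeR, adjusted p = 0.738). Only THBD and TFPI2 of the 5 kept their call under all 13 alternatives; F8 (-0.39, adjusted p = 0.0138), TFPI (-0.20, adjusted p = 0.0217) and F2RL1 (-0.30, adjusted p = 0.0426) lost it without either control siRNA library. F8 also lost it with DESeq2, TFPI with total-count scaling, and F2RL1 with both, with the fit that was not robust (adjusted p = 0.0504) and without PELP1 siRNA replicate 2, where its value was -0.16 (adjusted p = 0.200), against -0.46 without PELP1 siRNA replicate 1. Markers of endothelium, which expresses THBD in vivo, passed the filter for 3 of 6 genes and summed to 11.4 and 10.9 CPM in PELP1 siRNA libraries and 15.3 and 15.0 CPM in control siRNA libraries, with CLDN5 at 0 in all. Most of that sum was KDR, with 9.85 and 9.48 CPM in PELP1 siRNA libraries and 14.2 and 13.1 CPM in control siRNA libraries. KDR was called lower (-0.50, edgeR, adjusted p = 0.00380). The part of these markers in THBD's value was not tested.

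Of 79 other trypsin-like serine proteases, 17 were tested, of which 3 rose, 1 fell and 13 did not pass, with a median log2 fold change of 0.10. The share called was 23.5%, beside 27.9% of all genes tested. PRSS23 had 173 and 179 CPM in PELP1 siRNA libraries and 105 and 108 CPM in control siRNA libraries (log2 fold change 0.73, edgeR, adjusted p = 2.08e-08), and 12.2% of its exon bases overlap FZD4 on the opposite strand. PRSS35 had 32.6 and 29.4 CPM in PELP1 siRNA libraries and 17.0 and 17.3 CPM in control siRNA libraries (0.85, edgeR, adjusted p = 7.79e-07). C1R (0.30, adjusted p = 0.00354) and PRSS3 (-0.37, adjusted p = 0.0169) lost their calls without either control siRNA library. PRSS3 also lost it with DESeq2's Wald test (adjusted p = 0.0860) and without PELP1 siRNA replicate 1 (-0.25, adjusted p = 0.0699). TMPRSS15, enteropeptidase, the duodenal activator of trypsinogen, was counted at 235 and 212 CPM in PELP1 siRNA libraries and 248 and 255 CPM in control siRNA libraries, and did not pass (-0.17, edgeR, adjusted p = 0.0633). Whether these reads come from a transcript of that protease or from another transcript counted at its annotated exons was not tested. Among 10 tested inhibitors of other families (of 32 listed), 4 fell, none rose and 6 did not pass, with a median of -0.21. The share called was 40.0%, beside 27.9% of all genes tested. Those that fell were TFPI2, TFPI, PI3 (elafin, -0.56, edgeR, adjusted p = 3.99e-05) and CD109 (-0.37, edgeR, adjusted p = 4.74e-04). TFPI2 is also counted in the plasminogen and coagulation lists, and TFPI in the coagulation list. That none rose depended on the setting: 2 rose and 4 fell under upper quartile scaling, 2 rose and 3 fell under total-count scaling, 1 rose with limma-voom, and 2 rose without either PELP1 siRNA library. While the collagen chaperone SERPINH1 stayed near its control level, 6 of 17 tested collagen folding partners (of 18 listed) rose and 3 fell, with a median of -0.043. The share called was 52.9%, beside 27.9% of all genes tested. LEPREL1, a prolyl 3-hydroxylase, had 44.8 and 46.6 CPM in PELP1 siRNA libraries and 20.6 and 24.1 CPM in control siRNA libraries (log2 fold change 1.03, edgeR, adjusted p = 2.85e-08). SPARC, a collagen-binding matrix protein, also rose (0.54, edgeR, adjusted p = 2.48e-07). These were the 2 calls of the list that held under all 13 alternatives.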
